A study of Mus musculus with 48 samples.

Results

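The hippocampus of 5xFAD mice kept on the CSF1R inhibitor PLX5622 was compared with the thalamus of the same group, to find which myeloid transcripts were left in the hippocampus after long inhibition and to separate them from genes that differ between these regions in any mouse. The libraries were chosen by their labels alone: 4 of 5xFAD + PLX5622 hippocampus and 4 of 5xFAD + PLX5622 thalamus, 8 of the 48 in the series. The 5xFAD + PLX5622 mice carry the 5xFAD transgenes, mutant human APP among them, driven by the neuronal Thy1 promoter, and their chow held 1200 ppm PLX5622 between the ages of 1.5 and 7 months. The other groups used here were PLX5622 (wild-type mice on the same chow), 5xFAD (transgenic, no inhibitor) and Wild-type (no transgene, no inhibitor), each with 4 hippocampal and 4 thalamic libraries, and all were labelled C57BL/6. The thalamic tissue also held striatum, since both were dissected together.

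Microglia are the resident macrophages of brain tissue, and in the adult they depend on signalling through the receptor CSF1R for survival, so that an inhibitor of this receptor removes most of them. 5xFAD mice form amyloid plaques early, and microglia that meet plaques are known to lower homeostatic genes such as P2ry12 and Tmem119 and to raise a program with Trem2, Cst7, Clec7a and Itgax. In bulk tissue, fewer cells of a type and less RNA per cell cannot be told apart, so the values below are transcript levels of the tissue and not cell counts.

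The libraries held 6.1 to 15.54 M recovered reads (8.92 to 15.03 M in the 8 treated 5xFAD libraries), and 15975 genes were tested on the scale log2(RPKM + 0.1), where RPKM is a read count scaled to transcript length and library size. Some libraries stood apart before any comparison. Liver transcripts were present in treated 5xFAD hippocampus 3 and 4, with 634 and 112 RPKM of the albumin gene Alb against 0.952 and 3.34 RPKM in hippocampus 1 and 2 and at most 0.549 RPKM in the treated 5xFAD thalamus. Treated 5xFAD hippocampus 1 had 6.64 RPKM of the dentate gyrus gene Prox1 and 52.9 RPKM of Tbr1, a gene of cortical pyramidal neurons, against 4.45 to 6.74 and 40.4 to 46.8 RPKM in 5xFAD cortex. Its 3 partners had 17.7 to 34.2 RPKM of Prox1 and 12.1 to 37.4 RPKM of Tbr1. Untreated 5xFAD hippocampus 4 (8.63 and 46.4 RPKM) and Wild-type hippocampus 2 (7.33 and 56.0 RPKM) were like it, and untreated 5xFAD hippocampus 3 held 368 RPKM of the striatal gene Ppp1r1b. The treated 5xFAD thalamus had 36.4 to 78.3 RPKM of the pyramidal neuron gene Slc17a7, and all 4 Wild-type thalamic libraries had more (222, 165, 87.5 and 139 RPKM), with Wild-type thalamus 1 and 2 the highest.

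**Figure D1:**
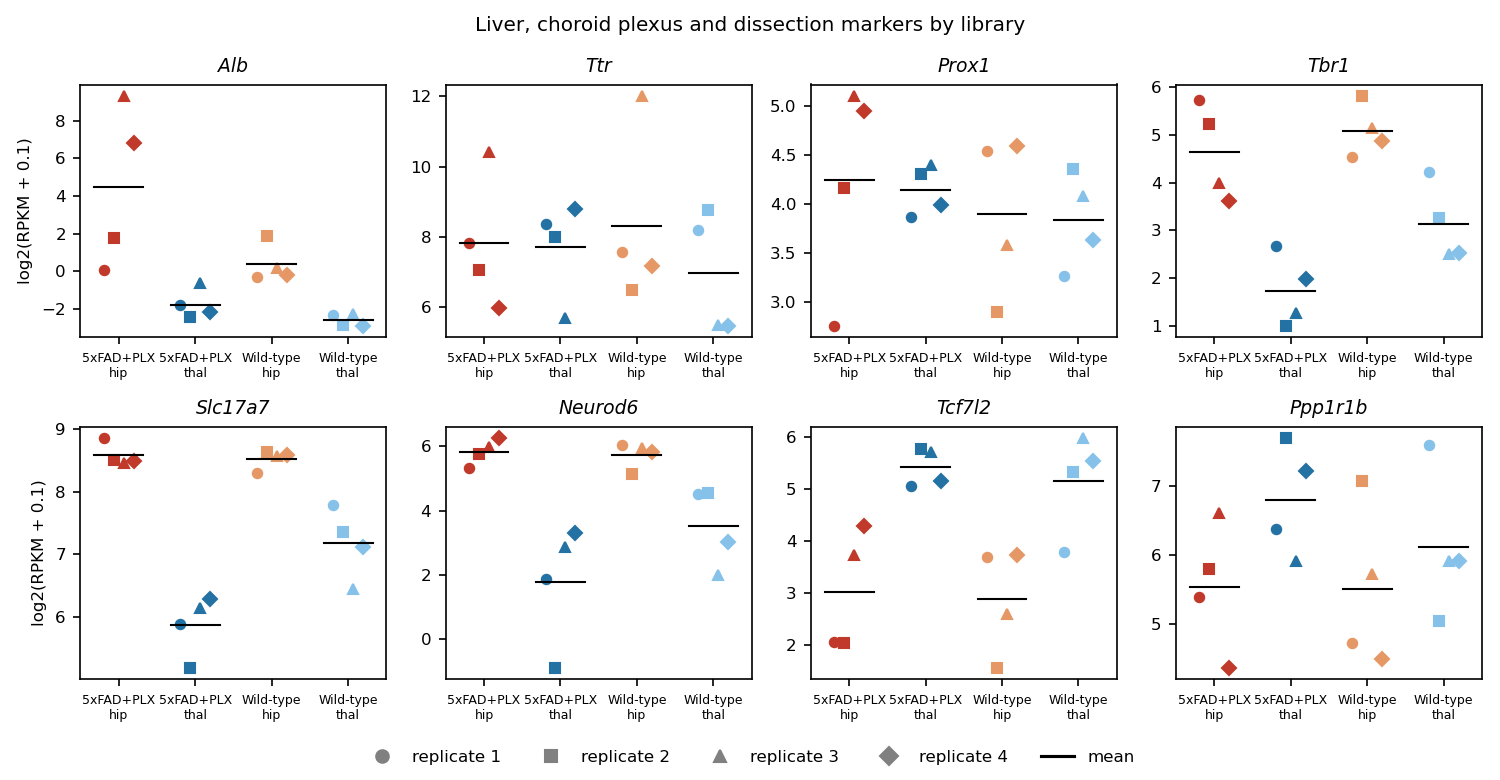
Levels of 8 marker genes, as log2(RPKM + 0.1), in each hippocampal and thalamic library, as points by group, with Alb for liver, Ttr for choroid plexus, Prox1 for dentate gyrus, Tbr1, Slc17a7 and Neurod6 for pyramidal neurons, Tcf7l2 for thalamic relay neurons and Ppp1r1b for striatum. Alb reached 634 RPKM in treated 5xFAD hippocampus 3, and Slc17a7 lay at 36.4 to 78.3 RPKM in the 4 treated 5xFAD thalamic libraries.

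In treated 5xFAD mice 2209 genes (13.8% of those tested) were higher in hippocampus than in thalamus and 2032 (12.7%) were lower, by limma at a Benjamini-Hochberg adjusted p of 0.05. The same contrast in Wild-type mice called 1285 genes higher (8.04%) and 1280 lower (8.01%). Of the genes called in treated 5xFAD, 976 higher and 986 lower genes were called in the same direction in Wild-type, which is 44.2% and 48.5% of the treated 5xFAD calls and 76% and 77% of the Wild-type calls. The difference between the treated 5xFAD and the Wild-type contrast was tested for every gene, and 42 genes (0.263%) were called with a larger hippocampal excess in treated 5xFAD. No gene (0%) was called in the other direction by limma, where 405 genes (2.54%) had an unadjusted p under 0.05, against 814 (5.1%) in the hippocampal direction, and limma voom on recovered reads also called 0. The count of 42 rested on single libraries, being 23 without treated 5xFAD hippocampus 2 or thalamus 1, 17 without Wild-type thalamus 1 and 2, 121 without treated 5xFAD hippocampus 1 and 93 without Wild-type thalamus 3, and it was 70 with the replicate number as a block. The median difference over all tested genes was -0.01 in treated 5xFAD and 0.02 in Wild-type.

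The 42 genes fell into 3 kinds by their known roles. Myeloid genes made up 35 of them, Thy1 belonged to the transgene cassette, and 5 others were Nell2, Olfm1, Sprn, Sh3bgrl3 and Dynll1. In treated 5xFAD the 35 myeloid genes were higher in hippocampus by 1.07 to 4.19 on the log2 scale (median 2.30), and for 34 of them every hippocampal library was above every thalamic one (13.1% over all tested genes). In Wild-type the regional differences of the same 35 genes ran from -0.98 to 0.15 (median -0.12). There limma called 0 of the 35, with 0 higher and 1 lower at an unadjusted p under 0.05 (16.9% and 13.6% over all genes), and voom on recovered reads called 2 lower. The fit pools the spread of each gene over all 48 libraries, so these counts do not show equal levels in Wild-type. Among others, Aif1, Ccl6, Havcr2 and Dock8 were lower in every Wild-type hippocampal library than in every thalamic one and were still not called. The treated 5xFAD and Wild-type libraries chose the 42 genes by the difference between these same contrasts, so a large treated 5xFAD difference and a small Wild-type one follow from the choice, and the counts of this paragraph are a description.

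**Figure D2:**
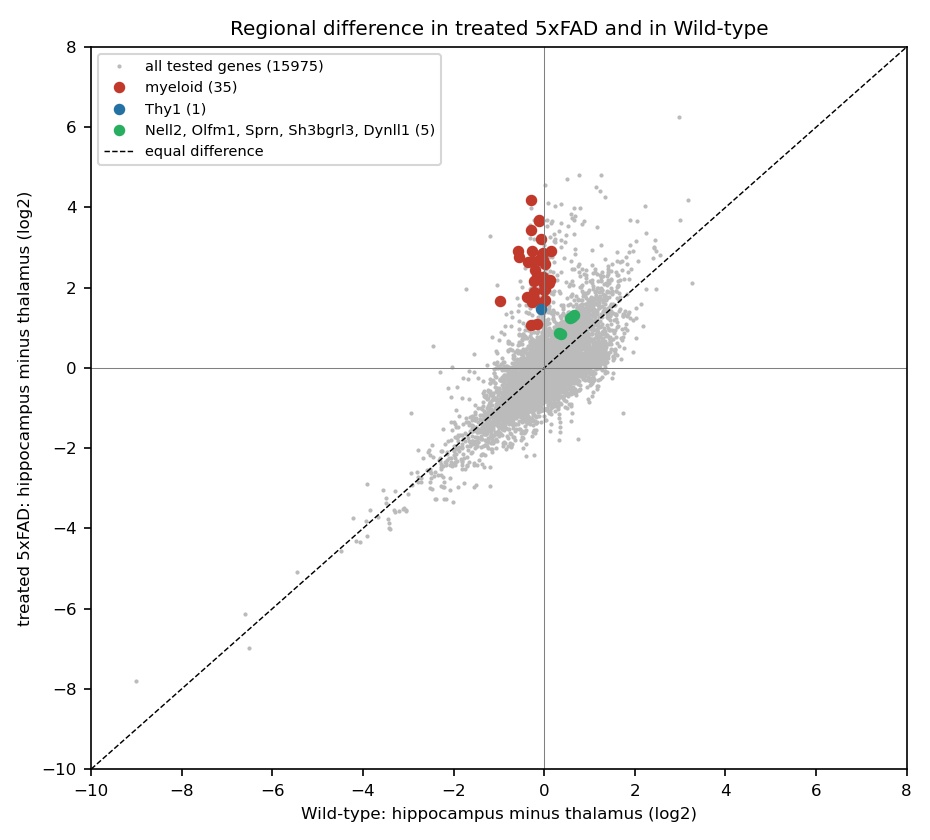
Hippocampus minus thalamus difference, on a log2(RPKM + 0.1) scale, for 15975 genes, with the treated 5xFAD contrast set against the Wild-type contrast. The dashed line marks equal differences. The 35 myeloid genes lie at 1.07 to 4.19 in treated 5xFAD and at -0.98 to 0.15 in Wild-type, away from the line.

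The promoters of a few of these genes are shown because PU.1, the lineage factor encoded by the member Spi1, is known to act at many microglial promoters. Windows of 300 bases, 250 before and 50 after the annotated start, came from RefSeq on GRCm38.p6, and 29 of the 42 genes matched a window. The letters GAGGAA, the core of PU.1 sites, were searched on both strands, and capitals mark each match. A match was present for 18 of the 29 genes (62.1%), among them 17 of the 25 matched myeloid genes, and for 31.3% of all 27025 genes with a window. The windows are Itgam at chr7:128062390-128062689, Trem2 at chr17:48346151-48346450, Laptm5 at chr4:130913066-130913365, Inpp5d at chr1:87620062-87620361, Siglech at chr7:55767934-55768233 and Cst7 at chr2:150570165-150570464, all on the plus strand.
Itgam: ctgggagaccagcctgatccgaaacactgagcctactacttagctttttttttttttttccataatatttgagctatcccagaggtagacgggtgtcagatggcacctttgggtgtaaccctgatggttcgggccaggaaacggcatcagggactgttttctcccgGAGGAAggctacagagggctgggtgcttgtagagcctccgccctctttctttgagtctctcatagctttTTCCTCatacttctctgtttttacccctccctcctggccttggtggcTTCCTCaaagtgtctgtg
Trem2: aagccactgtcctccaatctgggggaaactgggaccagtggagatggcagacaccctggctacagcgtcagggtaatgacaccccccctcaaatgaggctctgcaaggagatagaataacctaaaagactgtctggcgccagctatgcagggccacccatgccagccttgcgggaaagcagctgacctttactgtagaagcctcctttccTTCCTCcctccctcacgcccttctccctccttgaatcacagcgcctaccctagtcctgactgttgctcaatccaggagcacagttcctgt
Laptm5: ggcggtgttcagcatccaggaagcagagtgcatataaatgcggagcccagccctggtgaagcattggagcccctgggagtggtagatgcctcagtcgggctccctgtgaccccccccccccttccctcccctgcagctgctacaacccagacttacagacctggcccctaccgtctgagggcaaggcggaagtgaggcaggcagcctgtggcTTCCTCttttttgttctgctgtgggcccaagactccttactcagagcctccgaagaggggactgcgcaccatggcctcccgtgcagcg
Inpp5d: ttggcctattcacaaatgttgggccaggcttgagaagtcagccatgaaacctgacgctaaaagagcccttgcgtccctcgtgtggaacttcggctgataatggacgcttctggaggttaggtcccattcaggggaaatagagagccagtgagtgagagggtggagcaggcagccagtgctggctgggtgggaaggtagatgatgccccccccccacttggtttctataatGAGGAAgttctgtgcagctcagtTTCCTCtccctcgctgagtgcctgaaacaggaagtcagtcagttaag
Siglech: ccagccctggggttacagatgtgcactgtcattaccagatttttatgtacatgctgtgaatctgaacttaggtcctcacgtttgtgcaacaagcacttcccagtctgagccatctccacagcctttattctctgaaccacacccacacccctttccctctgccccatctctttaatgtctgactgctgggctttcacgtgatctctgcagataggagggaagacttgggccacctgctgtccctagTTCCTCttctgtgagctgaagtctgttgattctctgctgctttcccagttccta
Cst7: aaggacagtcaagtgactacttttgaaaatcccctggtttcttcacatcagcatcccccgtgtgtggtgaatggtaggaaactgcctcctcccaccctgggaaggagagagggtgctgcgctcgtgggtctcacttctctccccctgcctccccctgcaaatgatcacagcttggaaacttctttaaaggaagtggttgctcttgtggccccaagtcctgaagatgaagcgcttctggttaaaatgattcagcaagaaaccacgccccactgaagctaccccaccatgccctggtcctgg
Itgam held 3 matches, at -84, -15 and 32 bases from its start, Inpp5d held 2, Trem2, Laptm5 and Siglech 1 each, and Cst7 none in this window. A match of letters is a description of the window, and binding was not measured.

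Among the receptors, Csf1r encodes the target of the inhibitor itself. Csf1r read 3.23, 12.5, 7.09 and 4.66 RPKM in treated 5xFAD hippocampus 1 to 4, against 0.221, 0.401, 0.869 and 0.239 RPKM in treated 5xFAD thalamus. The lowest hippocampal library was above the highest thalamic library. The difference was 3.68 (SE 0.56, limma adjusted p = 2.62e-06), against -0.11 in Wild-type, where Csf1r averaged 19.2 ± 0.912 RPKM in hippocampus and 20.7 ± 0.808 RPKM in thalamus (mean ± SD, n = 4 each). Cx3cr1, the receptor for the neuronal chemokine fractalkine, read 1.61, 6.70, 3.26 and 3.07 RPKM in treated 5xFAD hippocampus and 0.179, 0.208, 0.547 and 0.199 RPKM in treated 5xFAD thalamus. Its groups were also apart, by 3.22 (SE 0.475, limma adjusted p = 1.57e-06), with a Wild-type range of 9.91 to 12.01 RPKM in hippocampus and 10.3 to 12.1 RPKM in thalamus. The purinergic receptors P2ry13 and P2ry6, the lysophospholipid receptor Gpr34 and the complement receptor C3ar1 were higher in treated 5xFAD hippocampus by 2.69, 2.45, 2.91 and 2.10.

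Genes of recognition and phagocytosis gave 9 members with differences of 1.78 to 3.67. Trem2, a lipid and apolipoprotein receptor that drives the plaque-associated program, read 2.43, 11.8, 4.26 and 5.44 RPKM in treated 5xFAD hippocampus, against 0.0874, 0.0792, 1.41 and 0.454 RPKM in treated 5xFAD thalamus. Every hippocampal library was above every thalamic library, and hippocampus 2 was above the range of both Wild-type regions (4.13 to 5.76 RPKM in hippocampus and 3.92 to 6.94 RPKM in thalamus). The difference for Trem2 was 3.67 (SE 0.532, limma adjusted p = 1.13e-06). Ly86, which encodes a partner of the Toll-like receptor relative CD180, had 2.26, 6.46, 3.65 and 4.98 RPKM in treated 5xFAD hippocampus and 0.0954, 0.259, 1.23 and 0.124 RPKM in treated 5xFAD thalamus. Mpeg1, the gene of the pore-forming protein perforin-2, had 2.48, 11.2, 5.65 and 5.77 RPKM in treated 5xFAD hippocampus and 0.373, 0.656, 1.22 and 0.556 RPKM in treated 5xFAD thalamus. Fcgr3, an Fc receptor, had 0.920, 4.40, 2.20 and 2.05 RPKM in treated 5xFAD hippocampus and 0.0703, 0.382, 0.452 and 0.228 RPKM in treated 5xFAD thalamus. These 3 genes differed by 3.45, 2.91 and 2.64 and their groups did not overlap. Siglech, a sialic acid-binding lectin that marks microglia, kept the smallest share of its untreated 5xFAD level in thalamus (0.741%), with 0.195, 1.56, 0.921 and 0.637 RPKM in treated 5xFAD hippocampus and 0, 0, 0.128 and 0.0258 RPKM in treated 5xFAD thalamus, where the last values stood for 0, 0, 3 and 1 reads. For 8 of the 35 genes (Aif1, P2ry13, Arl11, P2ry6, Siglech, Spi1, Cd37 and Tlr7) no treated 5xFAD thalamic library had more than 3 reads, so the size of their log2 difference depends on the 0.1 added. That of other members with few reads does too, and with 0.01 or 1 in place of 0.1 the median over the 35 was 3.28 or 0.86. The lipopolysaccharide co-receptor Cd14, the single-stranded RNA sensor Tlr7, the checkpoint receptor Havcr2 and Cd84 differed by 2.67, 2.19, 1.78 and 2.11.

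The lysosomal members included the gene with the largest difference. Cst7, which encodes the cathepsin inhibitor cystatin F, had 2.29, 12.7, 6.27 and 10.3 RPKM in treated 5xFAD hippocampus, against 0.0965, 0.175, 0.724 and 0.313 RPKM in treated 5xFAD thalamus. Its difference of 4.19 (SE 0.619, limma adjusted p = 1.59e-06) stood first among the 42 genes with 0.1 added (P2ry13 was first at 4.74 with 0.01), while Wild-type hippocampus read 0.0791 to 0.447 RPKM and Wild-type thalamus 0 to 1.80 RPKM. Laptm5, a lysosomal membrane protein of immune cells, read 1.66, 10.7, 5.84 and 4.94 RPKM in treated 5xFAD hippocampus and 0.397, 0.683, 0.979 and 0.387 RPKM in treated 5xFAD thalamus (2.86, SE 0.354, limma adjusted p = 5.76e-08). Cd68, a glycoprotein of phagocyte lysosomes, was closer among the hippocampal libraries, with 4.71, 8.11, 4.93 and 6.73 RPKM in treated 5xFAD hippocampus and 0.850, 1.03, 1.32 and 2.08 RPKM in treated 5xFAD thalamus (2.17, SE 0.262, limma adjusted p = 3.49e-08). No treated 5xFAD hippocampal value of Cd68 was below the range of Wild-type hippocampus (4.53 to 4.87 RPKM), whereas for Laptm5 only hippocampus 2 reached it (9.49 to 11.4 RPKM). Slc11a1, a divalent metal transporter of phagocytic vacuoles, read 0.338, 1.38, 0.527 and 0.580 RPKM in treated 5xFAD hippocampus and 0.0826, 0.150, 0.177 and 0 RPKM in treated 5xFAD thalamus, again without overlap (1.94, SE 0.317, limma adjusted p = 8.80e-06).

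The adhesion genes Itgam and Itgb2, the subunits of complement receptor CR3, differed by 2.84 and 1.73, the selectin ligand Selplg by 2.70, and the tetraspanins Cd37 and Cd53 by 2.26 and 2.20. Itgam read 0.815, 3.61, 1.44 and 1.41 RPKM in treated 5xFAD hippocampus and 0, 0.258, 0.305 and 0.106 RPKM in treated 5xFAD thalamus, so the groups were apart, and all were below the Wild-type hippocampus (4.47 to 4.76 RPKM). Among genes of signalling, cytoskeleton and transcription, Spi1 read 0.292, 1.88, 1.16 and 0.645 RPKM in treated 5xFAD hippocampus, against 0, 0.194, 0.0765 and 0.139 RPKM in treated 5xFAD thalamus (2.30, SE 0.402, limma adjusted p = 2.64e-05). Aif1, which encodes the actin-binding protein IBA1 used to stain microglia, had 1.16, 2.53, 1.01 and 1.09 RPKM in treated 5xFAD hippocampus and 0.217, 0.197, 0.117 and 0 RPKM in treated 5xFAD thalamus (2.77, SE 0.413, limma adjusted p = 1.91e-06). Both genes were separated between the regions in all 8 libraries. Inpp5d, the lipid phosphatase SHIP1, had 1.21, 2.55, 1.34 and 1.35 RPKM in treated 5xFAD hippocampus and 0.289, 0.698, 0.393 and 0.325 RPKM in treated 5xFAD thalamus. Dock8, a guanine exchange factor of leukocytes, was the 1 myeloid gene whose regions overlapped, with 0.339, 0.763, 1.22 and 0.562 RPKM in treated 5xFAD hippocampus and 0.122, 0.342, 0.353 and 0.285 RPKM in treated 5xFAD thalamus. Its difference of 1.07 was the smallest among the 35. Arl11, Hcls1, Vav1, Nckap1l and Myo1f lay between, at 1.61 to 1.97. The chemokine Ccl6 read 0.488, 2.74, 1.77 and 1.40 RPKM in treated 5xFAD hippocampus and 0, 0, 0.355 and 0.215 RPKM in treated 5xFAD thalamus (2.92, SE 0.42, limma adjusted p = 9.82e-07), against 0.451 to 0.597 RPKM in Wild-type hippocampus and 0.647 to 1.24 RPKM in Wild-type thalamus.

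**Figure D3:**
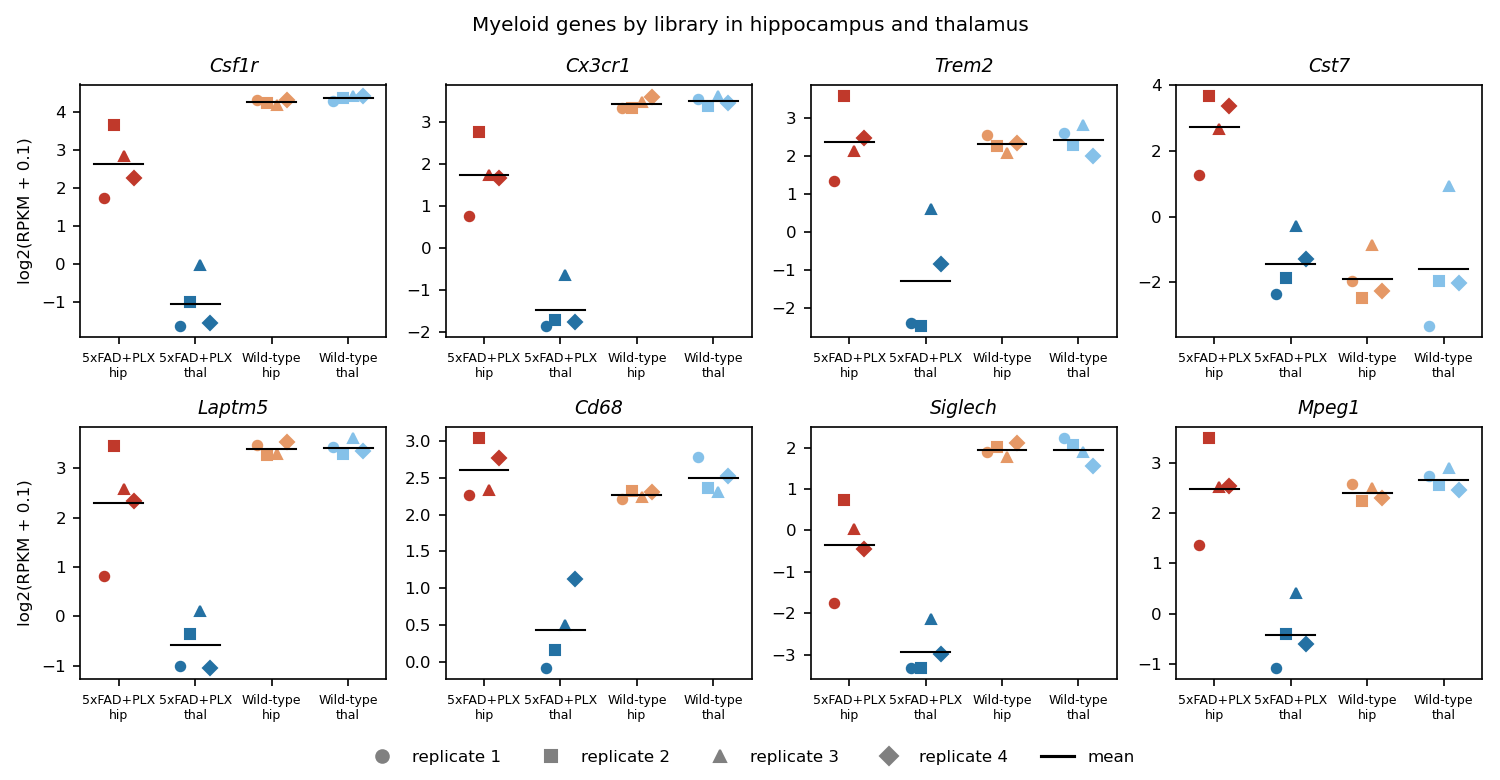
Levels of Csf1r, Cx3cr1, Trem2, Cst7, Laptm5, Cd68, Siglech and Mpeg1 on the log2(RPKM + 0.1) scale, with 1 point for each library and a line at the mean of each group of 4. Within treated 5xFAD every hippocampal point is above every thalamic point for these 8 genes, with Cd68 at 4.71 to 8.11 RPKM in hippocampus and 0.850 to 2.08 RPKM in thalamus.

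The myeloid genes varied together across the 4 treated 5xFAD hippocampal libraries. Summed over 34 of the 35 genes, the level was 34.6, 130.2, 66.7 and 69.6 RPKM in treated 5xFAD hippocampus 1 to 4, and 4.36, 8.22, 13.1 and 7.70 RPKM in treated 5xFAD thalamus 1 to 4. Hippocampus 2 was the highest of its group for 34 of the 35 genes and hippocampus 1, the library with cortex-like Prox1 and Tbr1, was the lowest for 33. The share of this spread that goes with the dissection was not tested. Without hippocampus 2, without hippocampus 1, or without the liver-bearing hippocampus 3 and 4, all 35 genes were still called higher in treated 5xFAD hippocampus. The test of the difference from Wild-type, which chose the genes, kept 16 of the 35 without hippocampus 2, 35 without hippocampus 1 and 16 without hippocampus 3 and 4.

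The other mice give the scale of these levels. The same sum was 5.22 to 10.5 RPKM in hippocampus and 3.84 to 16.6 RPKM in thalamus of PLX5622 wild-type mice, 289.9 to 372.9 RPKM in hippocampus and 206.7 to 292.7 RPKM in thalamus of untreated 5xFAD mice, and 107.3 to 116.8 RPKM in hippocampus and 118.1 to 136.1 RPKM in thalamus of Wild-type mice. Relative to untreated 5xFAD, 13.2 to 44.5% of the mean level (median 25.3%) was left in hippocampus and 0.741 to 14.8% (median 3.18%) in thalamus. Relative to Wild-type hippocampus, the treated 5xFAD hippocampal mean was 21.9 to 3975% (median 66.6%), and it was above Wild-type for 8 of the 35 genes, among them Cst7, Ccl6, Cd14, Cd68 and Trem2, with P2ry6 level at 100%. Without hippocampus 2 it was above Wild-type for 6, and Trem2 and Mpeg1 stood at 82.9 and 88.7% of Wild-type. The 3975% of Cst7 compares a mean of 7.87 RPKM in treated 5xFAD hippocampus with 0.198 RPKM in Wild-type hippocampus.

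The arms with only the inhibitor or only the transgenes were examined next, since their libraries did not choose the 42 genes. In PLX5622 wild-type mice the regional differences of the 35 genes ran from -0.99 to 1.21 (median 0.01), with 3 called higher in hippocampus (Aif1 1.21, P2ry6 1.10 and Tlr7 0.89) and 2 called lower (Itgb2 -0.99 and Slc11a1 -0.87), against a background of 14.2% higher and 13.7% lower over all tested genes. In untreated 5xFAD mice they ran from -0.04 to 0.65 (median 0.28), and 0 of 35 were called by limma, against 3.19% higher and 2.59% lower over all genes. At an unadjusted p under 0.05 it was also 0 of 35 (9.13% higher and 8.41% lower over all genes), as it was by voom. Because the fit pools the spread over all 48 libraries, the 0 of 35 does not show equal levels in untreated 5xFAD. The sum given above was 289.9 to 372.9 RPKM in untreated 5xFAD hippocampus and 206.7 to 292.7 RPKM in untreated 5xFAD thalamus. The treated 5xFAD difference was larger than that of PLX5622 wild type for all 35 genes, and 21 passed the test of the difference (0.2% of all genes), among them Laptm5 (3.37), Ccl6 (3.52), Siglech (2.58) and Cd68 (2.00). It was also larger than that of untreated 5xFAD for all 35, and 20 passed (0.576% of all genes), but 0 passed without untreated 5xFAD hippocampus 3 and 4, where the untreated 5xFAD differences ran from 0.14 to 0.94 (median 0.30). Both comparisons share the treated 5xFAD libraries with the contrast that chose the genes. Csf1r, Cx3cr1 and Trem2 did not pass against PLX5622 wild type (3.12, 2.75 and 3.02, limma adjusted p = 0.109, 0.0784 and 0.0945).

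**Figure D4:**
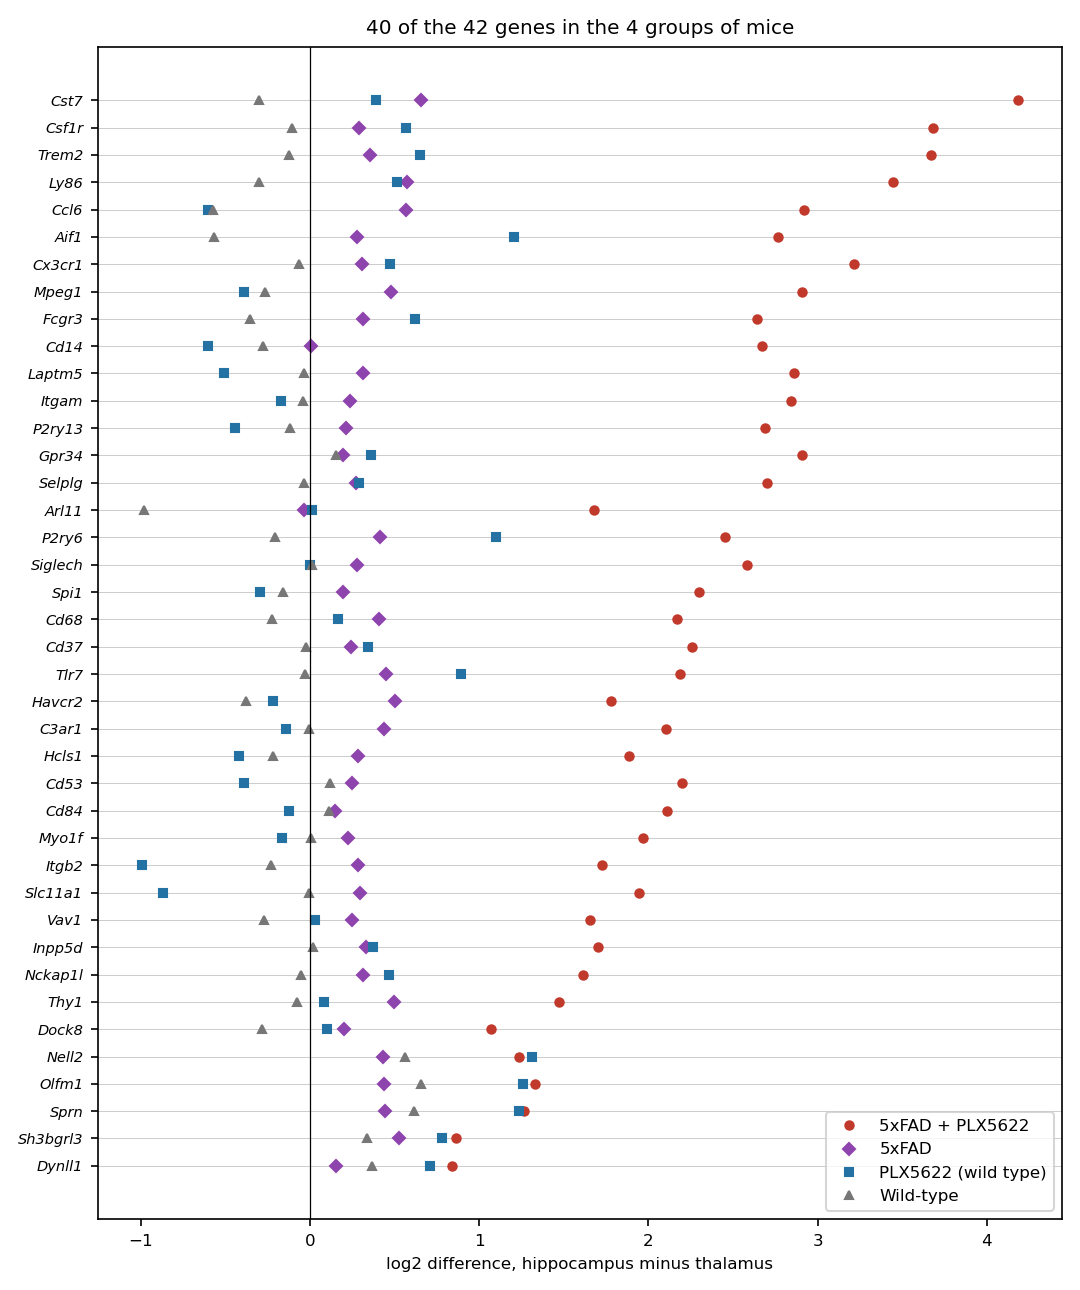
Hippocampus minus thalamus difference, as log2(RPKM + 0.1), for 40 of the 42 genes in treated 5xFAD, PLX5622 wild type, untreated 5xFAD and Wild-type mice. Over the 35 myeloid genes, of which 34 are drawn, the treated 5xFAD points lie at 1.07 to 4.19, while those of PLX5622 wild type lie at -0.99 to 1.21, of untreated 5xFAD at -0.04 to 0.65 and of Wild-type at -0.98 to 0.15.

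A set drawn without any 5xFAD library gave a broader view of the myeloid signal. PLX5622 lowered 141 genes in both hippocampus and thalamus of wild-type mice by more than 1 on the log2 scale and with a limma adjusted p under 0.05, where 1.62% and 2.91% of all genes were called lower at any size. In treated 5xFAD, 91 of these were higher in hippocampus than in thalamus and 0 were lower (105 and 0 at an unadjusted p under 0.05, against 18.1% and 18% of all genes, and 81 and 0 by voom). A difference above 0 was seen for 135, and for 65 every hippocampal library was above every thalamic one, against 13.1% of all genes. The median was 1.22, against -0.07 in Wild-type (where 0 of 141 were called, 1 higher and 2 lower unadjusted, and 1 higher and 3 lower by voom) and -0.13 in PLX5622 wild type. Over all genes Wild-type had 8.04% called higher and 8.01% lower. The spread is pooled over all 48 libraries, so the 0 of 141 does not show equal levels. The difference from Wild-type was called for 32 of the 141 (0.263% of all genes) and had an unadjusted p under 0.05 for 96 (5.1% of all genes), all with a larger hippocampal excess in treated 5xFAD. These 32 are among the 42 genes described above, so they are not separate support. With a mean RPKM of at least 1 required, 42 of the set were called higher.

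Of 30 homeostatic microglia genes tested, 25 were called higher and 0 lower in treated 5xFAD hippocampus (27 and 0 unadjusted, 24 and 0 by voom), with a median of 2.56 against -0.07 in Wild-type. Over all tested genes limma called 13.8% higher and 12.7% lower (18.1% and 18% unadjusted). The 5 not called were Sall1, Olfml3, Slco2b1, Ltc4s and Mertk. Sall1, which encodes a transcription factor of microglial identity and is also expressed by neural cells, read 2.31, 5.50, 4.62 and 3.81 RPKM in treated 5xFAD hippocampus, against 4.27, 4.10, 4.54 and 4.84 RPKM in treated 5xFAD thalamus. P2ry12, the ADP receptor of resting microglia, read 1.26, 4.44, 2.17 and 1.76 RPKM in treated 5xFAD hippocampus and 0.407, 0.147, 0.218 and 0.476 RPKM in treated 5xFAD thalamus (2.54, limma adjusted p = 1.48e-06), and Tmem119 read 1.05, 1.94, 1.27 and 1.05 RPKM in treated 5xFAD hippocampus and 0.183, 0.248, 0.979 and 0.504 RPKM in treated 5xFAD thalamus (1.46, limma adjusted p = 0.00541). Neither gene passed the test of the difference from Wild-type (limma adjusted p = 0.199 and 0.533), and the same was true of the complement gene C1qa, whose difference from Wild-type was 3.92 (limma adjusted p = 0.118). In all, 13 of the 30 passed that test, against 0.263% of all genes. Among the 25, C1qb (3.98), C1qc (3.77), Ctss (3.55) and Irf8 (1.63) were named after their values were seen and add no separate support. Tyrobp (3.21), named in the same way, belongs to the disease-associated list counted next.

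The plaque-associated genes were more mixed. Of 28 disease-associated microglia genes tested, 14 were higher and 3 were lower in treated 5xFAD hippocampus (13.8% higher and 12.7% lower over all genes, so the 3 are near the background), with a median of 0.56 against -0.21 in Wild-type, and 4 passed the test of the difference from Wild-type (0.263% of all genes). Clec7a, a β-glucan receptor, read 0.239, 2.58, 0.969 and 0.965 RPKM in treated 5xFAD hippocampus and 0, 0.379, 0.314 and 0.0271 RPKM in treated 5xFAD thalamus, and Itgax, the integrin subunit CD11c, read 0.155, 0.907, 0.548 and 0.522 RPKM in treated 5xFAD hippocampus and 0.142, 0.0428, 0.203 and 0.0307 RPKM in treated 5xFAD thalamus. Both were called higher in treated 5xFAD hippocampus (2.17 and 1.56), but hippocampus 1 overlapped the thalamic libraries, and neither passed the test of the difference from Wild-type (limma adjusted p = 0.19 and 0.0694). The protease genes Ctsd and Ctsz, which neurons and astrocytes also express, differed by 0.51 and 0.50. Ctsd read 133, 208, 183 and 165 RPKM in treated 5xFAD hippocampus, against 126, 111, 123 and 118 RPKM in treated 5xFAD thalamus. The 3 lower genes were Spp1, Fabp5 and Timp2, all also made by other brain cells. Timp2, a metalloprotease inhibitor, read 60.7, 54.6, 50.7 and 56.0 RPKM in treated 5xFAD hippocampus and 101, 105, 100 and 104 RPKM in treated 5xFAD thalamus, a difference of -0.88 that was -0.87 in Wild-type. Spp1, which encodes osteopontin, read 2.06, 2.61, 2.73 and 3.51 RPKM in treated 5xFAD hippocampus and 14.5, 8.58, 26.9 and 14.3 RPKM in treated 5xFAD thalamus (-2.42, against -1.48 in Wild-type). Without hippocampus 2 the higher count of this list was 10, and with a mean RPKM of at least 1 it was 9.

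Few markers of other myeloid and blood cells could be tested. Of 12 border macrophage genes 7 were tested and 0 were called by limma (1 higher unadjusted, 0 by voom), with a median of 0.24 and a summed level of 0.962 to 2.81 RPKM in treated 5xFAD hippocampus and 0.935 to 1.53 RPKM in treated 5xFAD thalamus, against 3.16 to 8.89 RPKM in Wild-type hippocampus and 5.34 to 9.68 RPKM in Wild-type thalamus. Mrc1, the mannose receptor of these cells, read 0.0439, 0.0181, 0.477 and 0.198 RPKM in treated 5xFAD hippocampus and 0.0179, 0.0811, 0.0959 and 0.0581 RPKM in treated 5xFAD thalamus, with its higher values in the liver-bearing hippocampus 3 and 4. Of the monocyte and neutrophil list only Ccr2 was tested and of the lymphocyte list only Cd4, and neither was called. Of 6 MHC class II genes H2-DMa was called higher, a share near the 13.8% over all genes. The CSF1R ligand Il34 was higher in treated 5xFAD hippocampus, with 20.2, 14.6, 16.4 and 12.8 RPKM against 10.7, 9.62, 9.44 and 12.2 RPKM in treated 5xFAD thalamus (0.59, limma adjusted p = 0.000765), while Csf1 differed by 0.09 (limma adjusted p = 0.759).

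Thy1, of the transgene cassette, also passed the test of the difference from Wild-type. The values do not tell reads of the transgenes from those of the endogenous genes, so App and Thy1, whose promoter drives the cassette, stand for both. Thy1 read 1846, 1379, 727 and 1209 RPKM in treated 5xFAD hippocampus and 515, 343, 451 and 474 RPKM in treated 5xFAD thalamus (1.47, SE 0.198, limma adjusted p = 2.74e-07), against 258 to 303 RPKM in Wild-type hippocampus and 250 to 360 RPKM in Wild-type thalamus. App read 1347, 1059, 672 and 967 RPKM in treated 5xFAD hippocampus and 587, 510, 586 and 573 RPKM in treated 5xFAD thalamus (0.80, limma adjusted p = 1.96e-05), and its difference from Wild-type (0.82) had a limma adjusted p = 0.0528. Hippocampus was above thalamus for both genes in all treated 5xFAD libraries, with hippocampus 3 the lowest of its group for each. In untreated 5xFAD the regional difference of Thy1 was 0.49 (limma adjusted p = 0.154). Thy1 and App were highest in the cortex-like treated 5xFAD hippocampus 1, and the share of their regional difference that goes with the dissection was not tested.

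The remaining 5 of the 42 genes are neuronal or widely expressed and were called higher in hippocampus in Wild-type too, by 0.33 to 0.66, so in treated 5xFAD they differed in size rather than in direction. Nell2, a secreted neuronal protein, read 166, 170, 198 and 209 RPKM in treated 5xFAD hippocampus and 66.5, 74.6, 87.5 and 87.9 RPKM in treated 5xFAD thalamus, against 144 to 184 RPKM in Wild-type hippocampus and 87.4 to 134 RPKM in Wild-type thalamus. Sprn, a prion-like protein, read 60.8, 55.5, 52.3 and 49.5 RPKM in treated 5xFAD hippocampus and 22.3, 21.3, 23.4 and 23.2 RPKM in treated 5xFAD thalamus, against 46.1 to 53.1 RPKM in Wild-type hippocampus and 27.6 to 34.5 RPKM in Wild-type thalamus. All 5 were also called in PLX5622 wild type (0.71 to 1.31), and 0 of them passed the test of the difference from it by limma, unadjusted (2.82% higher and 2.05% lower over all genes) or by voom. Without Wild-type thalamus 1 and 2, the libraries highest in Slc17a7, 0 of the 5 passed the test of the difference and 15 of the 35 myeloid genes did.

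Regional differences shared with Wild-type mice were set aside as the normal ones. Of the genes called in treated 5xFAD, 971 higher and 986 lower were called in Wild-type in the same direction and did not pass the test of the difference, and 1196 higher and 1046 lower were not called in Wild-type but did not pass that test either, so a treated 5xFAD difference unlike that of Wild-type was not shown for them. The shared genes with the largest lower values included markers of hypothalamic and midbrain neurons. Pmch, the precursor of melanin-concentrating hormone, read 0, 0.257, 0 and 1.92 RPKM in treated 5xFAD hippocampus and 99.0, 93.5, 56.2 and 35.2 RPKM in treated 5xFAD thalamus (-7.81, against -9.01 in Wild-type). Hcrt, the precursor of orexin, read 0.133, 0, 0 and 0 RPKM in treated 5xFAD hippocampus and 27.04, 17.57, 12.58 and 9.73 RPKM in treated 5xFAD thalamus. The dopamine transporter Slc6a3 read 0.0225, 0, 0.0319 and 0.967 RPKM in treated 5xFAD hippocampus and 21.86, 9.15, 16.94 and 11.98 RPKM in treated 5xFAD thalamus. No hippocampal library reached a thalamic one for these 3 genes. The oxytocin gene Oxt, the catecholamine enzyme Th and the genes Dlk1, Arhgap36 and Irs4 differed by -5.08, -4.31, -4.57, -4.35 and -4.18, and by -5.46, -4.16, -4.48, -4.06 and -3.92 in Wild-type.

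The shared genes with the largest higher values included markers of pyramidal neurons. Neurod6 and Neurod2, transcription factors of these cells, differed by 4.05 and 3.68 in treated 5xFAD and by 2.22 and 1.90 in Wild-type, and Fezf2, Emx1, Lct, Cldn22 and Blnk by 3.36, 3.16, 3.69, 3.67 and 3.05 in treated 5xFAD. Neurod2 read 41.2, 46.5, 54.6 and 53.5 RPKM in treated 5xFAD hippocampus, against 5.49, 0.715, 6.37 and 6.97 RPKM in treated 5xFAD thalamus. Akr1c18, an enzyme that inactivates progesterone, read 3.25, 2.30, 1.13 and 0.978 RPKM in treated 5xFAD hippocampus and 0 RPKM in all 4 treated 5xFAD thalamic libraries. All 9 forebrain pyramidal genes tested were higher in treated 5xFAD hippocampus (median 2.70, against 1.34 in Wild-type, where 6 were called). The median of this list in PLX5622 wild type was 2.64, near that of treated 5xFAD. Slc17a7, the cortical and hippocampal vesicular glutamate transporter, read 463, 365, 353 and 358 RPKM in treated 5xFAD hippocampus and 58.9, 36.4, 70.3 and 78.3 RPKM in treated 5xFAD thalamus (2.70, against 1.34 in Wild-type), and its difference from Wild-type had a limma adjusted p = 0.0751. The summed pyramidal level in thalamus was 226.2 to 340 RPKM in treated 5xFAD and 295.9 to 714.1 RPKM in Wild-type. In hippocampus the same sum was 1129 to 1303 RPKM in treated 5xFAD and 1067 to 1175 RPKM in Wild-type. Slc17a7 read 32.4 to 110 RPKM in the thalamus of PLX5622 wild-type mice. Of the dentate gyrus genes 5 of 9 were higher (median 1.14) and of the CA field genes 6 of 10 (median 1.25), against 13.8% over all genes. Without the cortex-like hippocampus 1 the counts were 6 of 9 (median 1.60) and 6 of 10 (median 1.64), and without hippocampus 3 and 4 they were 2 of 9 (median 0.47) and 4 of 10 (median 0.62, with 1 lower). Prox1 was not called with all libraries (0.10), without hippocampus 1 (0.60, limma adjusted p = 0.285) or without hippocampus 3 and 4 (-0.68, limma adjusted p = 0.296).

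Thalamic, basal forebrain, hypothalamic and monoamine neurons gave lower lists, set against 12.7% lower and 13.8% higher over all genes. All 11 relay neuron genes were lower in treated 5xFAD hippocampus (median -1.83, against -1.56 in Wild-type, where 10 were called), all 6 cholinergic genes were lower (median -3.00, against -2.32 in Wild-type), as were 6 of 7 hypothalamic genes (median -3.75, against -4.22) and 5 of 6 monoamine genes (median -3.09, against -3.07). Gbx2, a transcription factor of the developing thalamus, read 0.146, 0.271, 0.260 and 0.270 RPKM in treated 5xFAD hippocampus and 2.46, 4.70, 3.31 and 3.20 RPKM in treated 5xFAD thalamus. Tcf7l2, a factor of relay neurons, read 4.03, 3.99, 13.1 and 19.4 RPKM in treated 5xFAD hippocampus and 33.1, 54.5, 52.1 and 35.5 RPKM in treated 5xFAD thalamus, so that hippocampus 3 and 4 were higher than hippocampus 1 and 2 while still below every thalamic library. The acetylcholine synthesis gene Chat differed by -3.26 and Lhx8, a factor of cholinergic neurons, by -4.02. Striatal projection neuron genes had a median of -1.46, with 4 of 14 called lower, 1 without hippocampus 1 and 0 without hippocampus 3 and 4. The angiotensinogen gene Agt and the GABA transporter Slc6a11, both astrocytic, were among 8 of 12 homeostatic astrocyte genes that were lower (-2.67 and -1.82). Another 2 of the 12 were higher, and the median was -0.60. In Wild-type 7 were lower and 1 was higher, with a median of -0.40. Of 10 immediate early genes 7 were higher, with Arc at 1.85 in treated 5xFAD and 1.82 in Wild-type. The reactive astrocyte gene Gfap read 215, 261, 280 and 431 RPKM in treated 5xFAD hippocampus and 228, 131, 177 and 156 RPKM in treated 5xFAD thalamus and was not called (0.76, limma adjusted p = 0.0764).

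**Figure D5:**
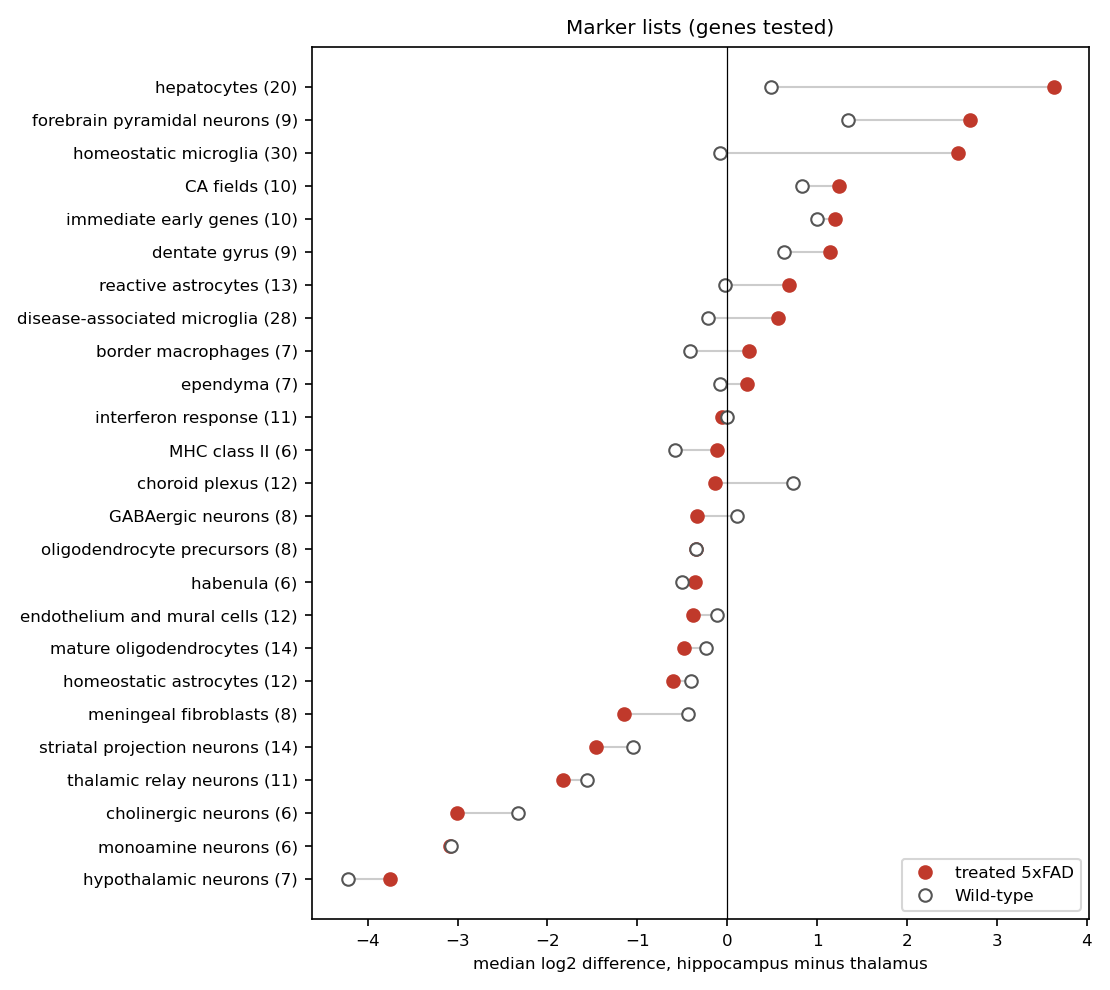
Median hippocampus minus thalamus difference of each marker list on the log2(RPKM + 0.1) scale, with treated 5xFAD as filled and Wild-type as open points. Homeostatic microglia lie at 2.56 in treated 5xFAD and at -0.07 in Wild-type, whereas thalamic relay neurons lie at -1.83 and -1.56.

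Liver transcripts rested on few libraries. Of 20 hepatocyte genes tested, limma called 19 higher in treated 5xFAD hippocampus (median 3.63, against 13.8% of all genes called higher) and voom on recovered reads called 1. The medians were 2.66 in PLX5622 wild type, where 11 were called higher (14.2% of all genes) and hippocampus 4 held 39.4 RPKM of Alb, 1.44 in untreated 5xFAD and 0.49 in Wild-type. Of the 20, 0 passed the test of the difference from Wild-type by limma (16 higher unadjusted, against 5.1% of all genes, and 0 by voom). Alb read 0.952, 3.34, 634 and 112 RPKM in treated 5xFAD hippocampus and 0.186, 0.0844, 0.549 and 0.121 RPKM in treated 5xFAD thalamus (6.26, limma adjusted p = 0.000126). The urea cycle enzyme Cps1 read 0.265, 0.204, 24.3 and 4.97 RPKM in treated 5xFAD hippocampus and 0.101, 0.0183, 0.0434 and 0.118 RPKM in treated 5xFAD thalamus. Without hippocampus 3 and 4, 0 of the 20 were called (Alb 2.69, limma adjusted p = 0.0796). In that fit 24 of the 30 homeostatic microglia genes were called higher, and 16 of the 35 myeloid genes passed the test of the difference from Wild-type. The myeloid sum was 66.7 and 69.6 RPKM in hippocampus 3 and 4, against 34.6 RPKM in hippocampus 1 and 130.2 RPKM in hippocampus 2. Whether liver tissue added to the myeloid levels was not tested. Of the liver macrophage list only Slc40a1 was tested.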

How the data were processed

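RNA of 48 libraries was read as 50 bp single reads, and the 8 treated 5xFAD hippocampal and thalamic libraries were compared with each other and with the 3 other arms. The authors used STAR on mm10 and featureCounts per gene, dropped low genes and deposited RPKM values for 16014 genes. The paper names the KAPA HyperPrep kit with RiboErase and the labels a TruSeq kit. Whole reads could be recovered from the RPKM steps for 16012 genes (tolerance 0.05 reads), and these gave the depths stated. Of the symbols, 24 stored as dates were named from Entrez numbers.

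Genes that reached 0.2 RPKM in 4 or more libraries entered the test on log2(RPKM + 0.1) in a group-means model of all 48 libraries (limma 3.58.1 in R 4.3.3, lmFit and eBayes with trend). P-values were two-sided and adjusted by Benjamini-Hochberg within each contrast over 15975 genes, at 0.05. Regional contrasts were taken in each arm, and their difference between arms was tested in the same fit. Levels left are ratios of mean RPKM. The study's methods describe replicates as biologically independent, and the labels do not name the animals. The test was checked on simulated data. Figures were made with Python 3.11.15 and matplotlib 3.10.9.

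Named genes were those the paper names for these groups with Tmem119, P2ry12, Trem2, Alb, Csf1 and Il34; up to 10 higher and 8 lower genes with the largest difference from Wild-type, without overlap and with a mean RPKM of at least 1; up to 8 higher and 8 lower of the largest genes called in treated 5xFAD and Wild-type alike; and up to 4 per marker list with the smallest p. A few items are not reported here. The rest of the 42 genes given and other list members were named after their values were seen. Members and the 31 marker lists were chosen with earlier results of these data known. Alternatives tried were pseudocounts of 0.01 and 1, other filters, rescaled libraries, smaller sets of libraries, other eBayes settings, voom on recovered reads, a replicate block, and each library left out in turn. Alternatives added after seeing the data left out Wild-type thalamus 1 and 2, and untreated 5xFAD hippocampus 3 and 4.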

Additional observations from a re-analysis of the deposited data

Results flagged for a closer look

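The hippocampus minus thalamus difference was larger in treated 5xFAD than in Wild-type for 42 genes, by the test of the difference itself in limma across all genes, and the values of 40 of them are given. For the receptors the excess of treated 5xFAD over Wild-type was, on the log2 scale, Csf1r 3.79, Cx3cr1 3.28, P2ry13 2.81, Gpr34 2.75, P2ry6 2.65 and C3ar1 2.11. For genes of recognition and phagocytosis the excess of treated 5xFAD over Wild-type was, on the log2 scale, Trem2 3.79, Ly86 3.75, Mpeg1 3.17, Fcgr3 3.00, Cd14 2.95, Siglech 2.57, Tlr7 2.21, Havcr2 2.15 and Cd84 2.00. For the adhesion genes the excess of treated 5xFAD over Wild-type was, on the log2 scale, Itgam 2.88, Selplg 2.73, Cd37 2.28, Cd53 2.08 and Itgb2 1.96. For genes of signalling, cytoskeleton and transcription the excess of treated 5xFAD over Wild-type was, on the log2 scale, Aif1 3.33, Arl11 2.66, Spi1 2.46, Hcls1 2.11, Myo1f 1.96, Vav1 1.93, Inpp5d 1.68, Nckap1l 1.66 and Dock8 1.35. For the lysosomal genes the excess of treated 5xFAD over Wild-type was, on the log2 scale, Cst7 4.49, Laptm5 2.90, Cd68 2.40 and Slc11a1 1.95. The chemokine gene Ccl6 had an excess of 3.49. For Thy1 it was 1.55, and for the remaining genes Nell2 0.68, Olfm1 0.67, Sprn 0.65, Sh3bgrl3 0.53 and Dynll1 0.47.

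Single libraries stood far from the other 3 of their group for 21 of the 194 groups of 4 examined (97 genes in 2 groups each), where chance alone sets apart about 1 in 20 groups. In treated 5xFAD hippocampus 2 the high values were 2.53 RPKM of Aif1, 1.13 RPKM of Havcr2 and 2.55 RPKM of Inpp5d, and the low value was 32.8 RPKM of Slc6a11. In hippocampus 1 Hcrt (0.133 RPKM) and Slc17a7 (463.1 RPKM) were high and Gbx2 (0.146 RPKM) was low. In hippocampus 3 Sh3bgrl3 (101.5 RPKM) was high and Fabp5 (11.8 RPKM) low, and in hippocampus 4 Dlk1 (1.25 RPKM), Pmch (1.92 RPKM) and Slc6a3 (0.967 RPKM) were high. In treated 5xFAD thalamus 3 the genes that stood high were Cx3cr1 (0.547 RPKM), Ly86 (1.23 RPKM) and Ctss (3.01 RPKM), all myeloid. In thalamus 4 Arc (18.4 RPKM), Nr4a1 (16.5 RPKM) and Cldn22 (0.0622 RPKM) were high and Agt (67.5 RPKM) was low, and in thalamus 1 Tat (0.0801 RPKM) and Arl11 (0.0642 RPKM) were high, the last from few reads.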

How the results depend on the processing

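All 35 myeloid genes were called higher in treated 5xFAD hippocampus under every alternative in which they were tested, except that 34 were with a pseudocount of 1. The number of genes called unlike Wild-type moved more. It was 42, and became 9 with a pseudocount of 0.01 (6 of them myeloid), 25 with a mean RPKM of at least 1, 75 with rescaled libraries (all 42 kept), 12 with the 16 treated 5xFAD and Wild-type libraries fitted alone (8 of the 42 kept), 27 without hippocampus 3 and 4 (19 kept), and 17 without Wild-type thalamus 1 and 2 (17 kept). Unadjusted, 814 were larger and 405 smaller. Genes called in the other direction numbered 2 without hippocampus 3 and 4. Leaving out 1 library at a time gave 23 to 121 genes in the hippocampal direction and 0 to 3 in the other. It was 121 without hippocampus 1 (42 kept), 23 without hippocampus 2 or without thalamus 1, and 93 without Wild-type thalamus 3. Of the 42 genes only Cd68 kept its call in all 30 alternatives. Same-numbered hippocampal and thalamic libraries of treated 5xFAD correlated at 0.087, 0.113, 0.011 and -0.116, and the main fit did not pair them. In PLX5622 wild type same-numbered pairs correlated at 0.224, 0.198, 0.371 and 0.11, but hippocampus 1 and thalamus 4 correlated at 0.484. Same-numbered pairs correlated at -0.107, -0.281, 0.049 and -0.019 in Wild-type, and at -0.037, 0.059, -0.013 and 0.059 in untreated 5xFAD. The labels do not tie numbers to animals, but same-numbered libraries share marks that hint at it. Xist read 46.6 and 68.1 RPKM in treated 5xFAD hippocampus and thalamus 1, and Hbb-bs 98.6 and 89.5 RPKM in those numbered 4. Xist also read 93.5 and 46.6 RPKM in Wild-type hippocampus and thalamus 3, and 104.2 and 68.4 RPKM in those of untreated 5xFAD. Hbb-bs read 97.6 and 113.1 RPKM in PLX5622 hippocampus and thalamus 3. Against this, Xist read 5.445 and 0.0342 RPKM in treated 5xFAD hippocampus and thalamus 3. If the numbers mark animals, the main test leaves out a pairing. With the replicate number as a block 70 genes were larger (the 42 among them) and 1 smaller. Voom on recovered reads called 3114 genes lower in treated 5xFAD and 2807 lower in Wild-type, and moved the median of all genes by -0.11 in treated 5xFAD and -0.14 in Wild-type. The Wild-type count of higher genes was 835 with hippocampus and thalamus fitted alone, 2483 without Wild-type thalamus 1 and 2, and 2698 unadjusted (2178 lower). With a pseudocount of 1 the homeostatic median was 1.06, and with a mean RPKM of at least 1 42 genes of the PLX5622-lowered set were higher. Against PLX5622 wild type in place of Wild-type 32 genes were called (23 of the 42), and Nell2 changed sign (-0.076, limma adjusted p = 0.999). Of 126 named genes called, 25 lost the call under at least 1 alternative, among them Alb, Cps1, Tat, Ctsd, Ctsz and Arl11. Values at the lowest RPKM rest on few reads, and their log2 differences are limited by depth.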
